A study of Mus musculus with 6 samples.

Results

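The genes described here encode drug efflux pumps, carriers of organic anions and enzymes of xenobiotic metabolism, as measured in sorted blood endothelium of the mouse intestine. There are 9 listed genes, Abcb1a, Abcb1b, Abcg2, Abcc1, Abcc4, Slco2a1, Ephx1, Por and Gstm1. A gene was taken by the probe set that the platform annotation assigns to its symbol alone and, where there were several, by the brightest over the 6 arrays. Probe sets were thus selected on their mean level alone. The genes were chosen by function, with their changes in these arrays already known. Of the 9 genes, 8 had such a probe set, 1 each, among 22180 genes with a probe set of their own. No probe set was named Por by the annotation, so Por was not analysed here. All 8 lay above the background level on each of the 6 arrays, and 15284 genes in all had a mean above it. That level was a log2 value of 4.12, the 90th percentile of the means of 1428 olfactory, vomeronasal and taste receptor genes.

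The study asked what intestinal endothelium expresses after loss of epithelial Apc, a negative regulator of Wnt signalling. Knockout mice carried Apcfl//fl with Villin-CreERT2, a tamoxifen-inducible Cre recombinase under a promoter active in intestinal epithelium. Control mice were Apcfl//fl, called WT by the labels, with no Cre named for them. Both groups were adult, of a mixed C57BL/6 x 129 background, and received tamoxifen under the skin on 5 days before harvest of the intestine on day 6. After collagenase digestion, cells positive for CD31 and negative for CD45, EpCAM and gp38 were sorted, and their amplified RNA was hybridised to 3 knockout and 3 control arrays, each labelled as a biological replicate. Exact ages and the number of mice per array are not given in the labels. All values below are log2 values per probe set, and since probe sets differ in their response, levels are compared between arrays for a gene and not between genes.

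Cells meet foreign compounds with a sequence of proteins. Carriers of the SLC families bring organic ions in, phase I enzymes such as cytochromes P450 and epoxide hydrolase oxidise or open them, phase II enzymes such as glutathione S-transferases attach a polar group, and ATP-driven pumps of the ABC family expel the drug or its conjugate. Capillary endothelium is known for such pumps above all at the blood-brain barrier, where P-glycoprotein and the breast cancer resistance protein face the blood. In the intestine the same pumps also sit on the brush border of enterocytes, so RNA of both cell types can carry these genes.

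The level of Pecam1, which encodes CD31, was 11.43 ± 0.018 in the knockout and 11.43 ± 0.070 in the control (SD, n = 3 each). The mean of 16 pan-endothelial markers, all 16 above background, ranged from 10.80 to 10.88 in the knockout and from 10.72 to 10.78 in the control. Other cell types left RNA that differed between the groups. The mean of the 20 measured of 21 enterocyte markers ranged from 4.98 to 5.32 in the knockout arrays, and it was 6.43 in control 1, 8.20 in control 2 and 7.83 in control 3. The mean of 15 mural markers, those of smooth muscle and pericytes, ranged from 7.56 to 7.99 in the knockout and was 8.67 in control 1, 8.31 in control 2 and 8.45 in control 3. No marker of either list lay below background on all 6 arrays. Of their brightest genes, Fabp2 changed by -3.29. Fabp1 averaged 6.83 in the knockout and 10.40 in the control, Rbp2 6.59 and 9.91, Rgs5 10.98 and 11.68, Acta2 10.19 and 11.01, and Myl9 10.07 and 10.93. The pan-epithelial mean, over 10 of 11 markers above background, ranged from 5.56 to 5.85 in the knockout and from 6.02 to 7.34 in the control, with Tspan8 at 10.11 and 10.32, Lgals4 at 6.52 and 8.65, and Krt8 at 5.92 and 7.55. The T and NK cell mean, over 9 of 13 markers, ranged from 4.67 to 5.11 in the knockout and from 5.45 to 6.29 in the control. That of goblet, Paneth and enteroendocrine markers, 11 of 14, ranged from 4.86 to 5.03 and from 4.96 to 6.99, with overlap. The lymphatic endothelial mean, over 6 of 8 markers with 2 called higher, ranged from 5.72 to 6.33 and from 5.47 to 5.85. Epcam was below background on all 3 knockout arrays and in control 1, but above it at 7.20 in control 2 and 6.24 in control 3. Ptprc, which encodes CD45, averaged 4.14 and 4.46. Pdpn, which encodes gp38, averaged 5.11 and 5.42, and Apc, deleted only in the epithelium, 6.35 and 6.50. In such bulk samples fewer cells of a type and less RNA per cell cannot be told apart.

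In the knockout, 2 of the 8 measured genes rose and 2 fell, while 4 did not pass the test. The falls were Ephx1, 2.27-fold lower, and Abcb1a, 1.44-fold lower. The rises were Abcc1, 1.54-fold, and Slco2a1, 1.25-fold. The test was limma across all 15284 genes above background with p-values adjusted by Benjamini-Hochberg and called under 0.05. It called 2.61% of all genes, 1.13% as higher and 1.48% as lower. Knockout and control values did not overlap for 7 of the 8 genes, Abcb1b being the exception, against 22.1% of all genes. The median change of the 8 genes was -0.054 on the log2 scale, and that of all genes tested -0.017. Since the genes were chosen with these changes known, the counts describe the genes and are not independent evidence about them.

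**Figure D1:**
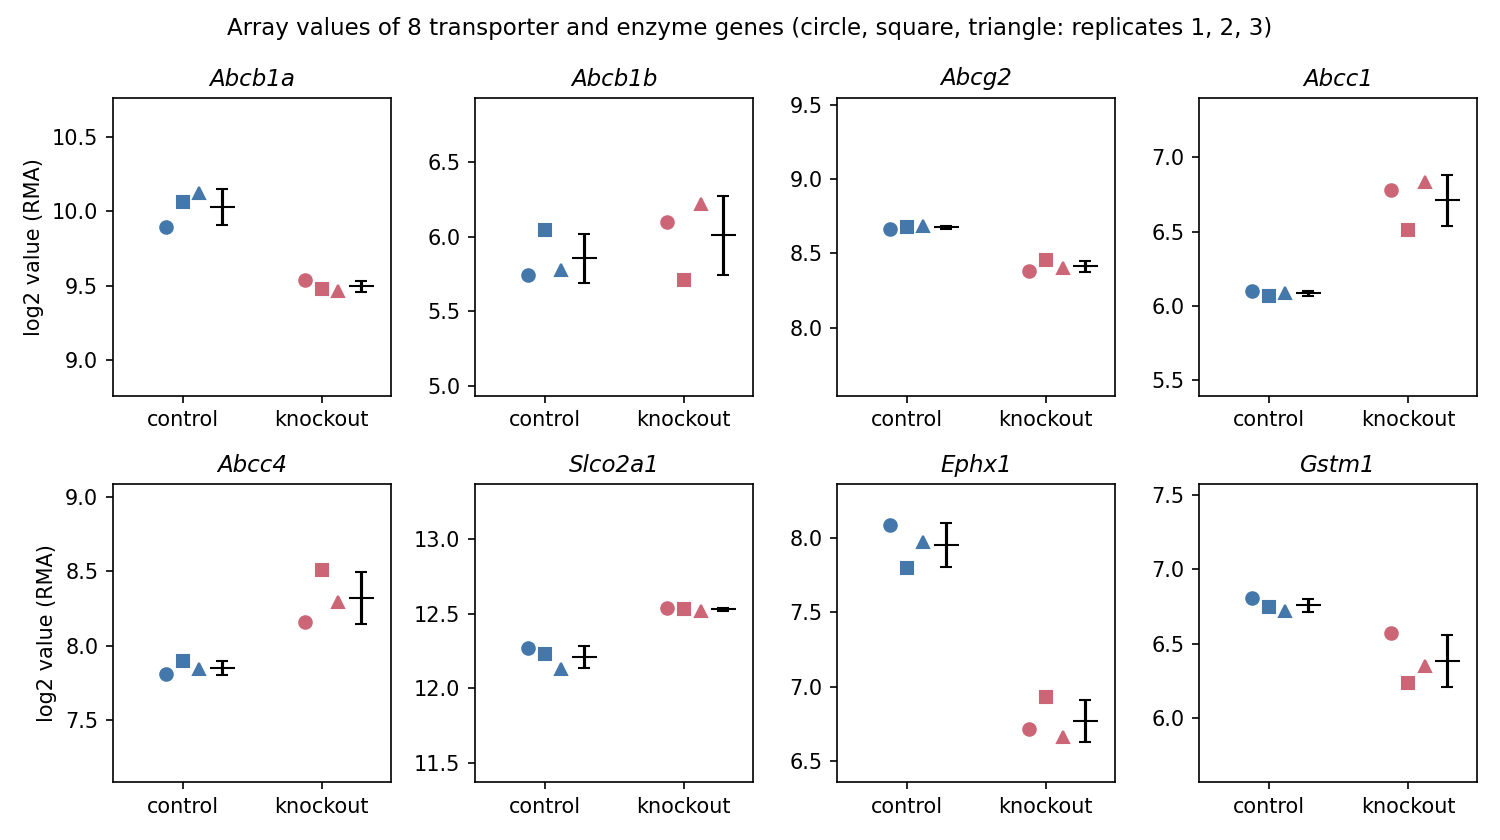
Log2 values of the 8 measured genes on the 3 control arrays (blue) and the 3 knockout arrays (red), 1 panel per gene, with the group mean and SD as black bars and a vertical span of 2 log2 units in each panel. The groups are separate in 7 panels and overlap for Abcb1b.

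P-glycoprotein, the broad-range pump of lipophilic drugs, is encoded in the mouse by Abcb1a and Abcb1b, which lie next to each other on chromosome 5 with Abcb4, a phospholipid transporter gene, as the following neighbour. Abcb1a is known as the form of brain capillaries and intestine, Abcb1b as that of adrenal and pregnant uterus. The 250 bases before the annotated start of each gene, from RefSeq on the GRCm38.p6 build, are shown because the neighbours are paralogs with separate promoters. The window of Abcb1a is chr5:8566841-8567090 and that of Abcb1b is chr5:8797897-8798146, both on the plus strand. Capitals mark a GC box, searched as GGGCGG on both strands.
Abcb1a: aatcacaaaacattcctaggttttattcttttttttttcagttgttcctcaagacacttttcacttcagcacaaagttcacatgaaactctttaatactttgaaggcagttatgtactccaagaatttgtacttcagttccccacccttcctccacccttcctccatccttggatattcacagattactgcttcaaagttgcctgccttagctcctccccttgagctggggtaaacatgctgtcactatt
Abcb1b: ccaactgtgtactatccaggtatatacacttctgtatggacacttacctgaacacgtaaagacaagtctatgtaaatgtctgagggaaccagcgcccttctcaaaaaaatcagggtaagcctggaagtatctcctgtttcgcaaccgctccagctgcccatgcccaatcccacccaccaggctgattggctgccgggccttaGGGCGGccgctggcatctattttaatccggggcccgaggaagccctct
In a global alignment 145 bases of these windows were identical, against 143 between Abcb1a and the unrelated Ephx1 promoter. The Abcb1a window held 40.4% G and C with no GC box, and the Abcb1b window 52.8% with 1 GC box, 48 bases before the start. Whether these annotated starts are the ones used in these cells was not tested. A GC box was present in 32.7% of all 32851 promoter windows of this length. Neither window held GCGTG, the core bound by the aryl hydrocarbon receptor (28.2% of all windows), or TGACNNNGC, the antioxidant response core (10.2%), on either strand.

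Abcb1a was at 9.54, 9.48 and 9.47 on knockout arrays 1 to 3 and at 9.89, 10.06 and 10.12 on control arrays 1 to 3. All knockout arrays were below all control arrays, control 1 being the lowest control. The change was -0.53 ± 0.079 (SE; 95% interval -0.71 to -0.35, adjusted p = 0.0137). Against control 1 alone, the control with the lowest enterocyte mean, it was -0.40 (adjusted p = 0.234). With the enterocyte mean in the model it was -0.28 (adjusted p = 0.772), and with the mural mean -0.61 (adjusted p = 0.697). Leaving out knockout 3 ended the call (adjusted p = 0.0608), as did leaving out control 3 (adjusted p = 0.0581) or the variance trend (adjusted p = 0.07).

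Abcb1b was at 6.10, 5.71 and 6.22 in the knockout and at 5.74, 6.05 and 5.78 in the control. Its values overlapped, with knockout 2 the lowest of all and knockout 3 the highest. The change was 0.15 ± 0.17 (SE; 95% interval -0.24 to 0.54, adjusted p = 0.721), an interval that holds rises of up to 0.54 and falls of up to -0.24. The within-group SD of Abcb1b, 0.222, was above the median of all genes, 0.171, and that of Abcb1a, 0.0891, below it. The difference between the paralogs, Abcb1a minus Abcb1b, averaged 3.49 ± 0.26 on the knockout arrays and 4.17 ± 0.16 on the control arrays (SD, n = 3 each). It fell by 0.68, with no overlap between groups, and the exact two-sided permutation test gave p = 0.1, the smallest that 3 against 3 arrays allow. The transcripts are similar in sequence and cross-hybridisation of their probes was not tested. Abcb4 lay below background on all 6 arrays.

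Abcg2 encodes the breast cancer resistance protein, a pump of sulfated conjugates, porphyrins and many drugs. Its values were 8.38, 8.46 and 8.40 in the knockout and 8.66, 8.68 and 8.69 in the control. The groups were separate and the spread was small, with a within-group SD of 0.0282. The change of -0.26 ± 0.081 (SE; 95% interval -0.44 to -0.078) did not pass (adjusted p = 0.144), and it was -0.25 against control 1 alone.

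Abcc1 and Abcc4 encode the multidrug resistance proteins MRP1 and MRP4, which export glutathione, glucuronide and sulfate conjugates. MRP1 is the exporter of leukotriene C4, and MRP4 also carries cyclic nucleotides and prostaglandins. Abcc1 was at 6.78, 6.51 and 6.83 in the knockout and at 6.10, 6.07 and 6.09 in the control. All knockout arrays were higher, and the control arrays lay within a narrow band (SD 0.015, n = 3) beside a wider one in the knockout (SD 0.17, n = 3). The change was 0.62 ± 0.13 (SE; 95% interval 0.32 to 0.93, adjusted p = 0.0482). This call was at the edge of the threshold. It ended without any 1 of the 6 arrays (adjusted p from 0.052 to 0.161) and without a filter on low values (adjusted p = 0.0592). It also ended with pan-endothelial centring (adjusted p = 0.0784), without the variance trend (adjusted p = 0.0632) and with the replicate block (adjusted p = 0.0812). The change stayed between 0.56 and 0.72 without each array in turn. With the enterocyte mean in the model the change was 0.52 (adjusted p = 0.779), and with the mural mean 0.55 (adjusted p = 0.986).

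Abcc4 was at 8.16, 8.51 and 8.30 in the knockout and at 7.81, 7.90 and 7.85 in the control. The groups were separate, knockout 2 being the highest. The change of 0.47 ± 0.11 (SE; 95% interval 0.22 to 0.72) did not pass (adjusted p = 0.0642). It passed with the stricter filter on low values (adjusted p = 0.0422), which tests fewer genes. Against control 1 alone the changes were 0.61 for Abcc1 and 0.51 for Abcc4, both without passing.

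Slco2a1 encodes the prostaglandin transporter, which takes prostaglandins up from outside the cell and is known for high expression in endothelium. It was at 12.54, 12.53 and 12.52 in the knockout and at 12.27, 12.23 and 12.13 in the control. The knockout arrays lay close together (SD 0.011, n = 3) and all above the control arrays (SD 0.071, n = 3). The change was 0.32 ± 0.046 (SE; 95% interval 0.22 to 0.42, adjusted p = 0.0113). It was 0.26 against control 1 alone (adjusted p = 0.148), and the call ended without knockout 3 (adjusted p = 0.0542) and without the variance trend (adjusted p = 0.178). With the arrays centred on the pan-endothelial mean, which shifts the median of all genes by -0.10, the change was 0.22 (adjusted p = 0.0319). With the enterocyte mean in the model the change was 0.22 (adjusted p = 0.67), and with the mural mean 0.38 (adjusted p = 0.589).

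**Figure D2:**
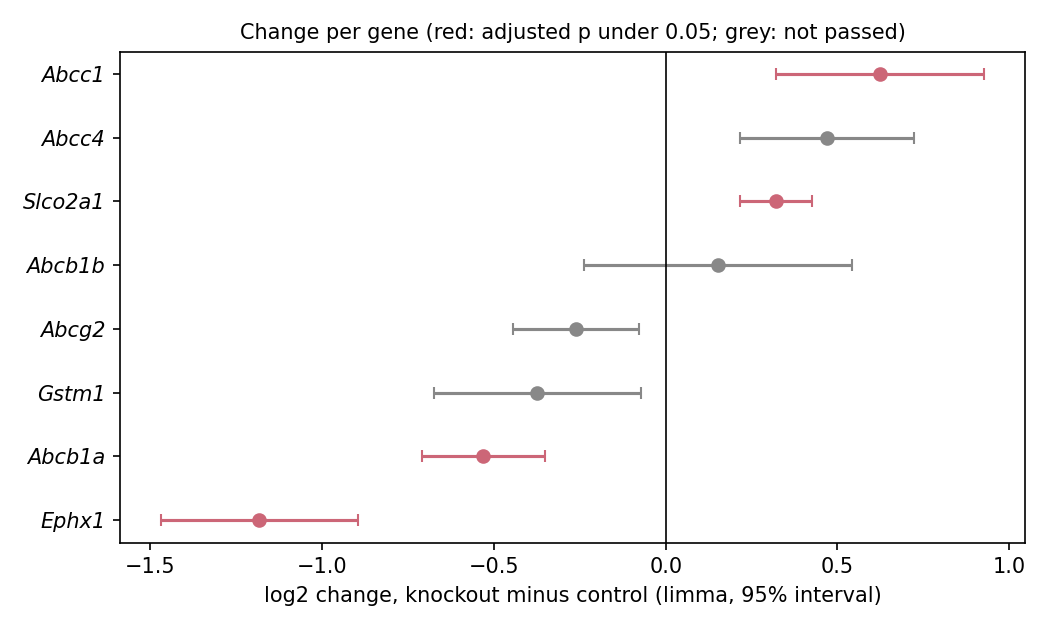
Log2 change per gene, knockout minus control, from limma with 95% intervals over 3 against 3 arrays, in red where the adjusted p was under 0.05. Ephx1 at -1.18 is the lowest and Abcc1 at 0.62 the highest, and the interval of Abcb1b spans 0.

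Ephx1 encodes microsomal epoxide hydrolase, which opens reactive epoxides made by cytochromes P450 into diols. Its promoter, chr1:181017570-181017819 on the minus strand of GRCm38.p6 (RefSeq), is shown because this gene had the largest change among the 8.
Ephx1: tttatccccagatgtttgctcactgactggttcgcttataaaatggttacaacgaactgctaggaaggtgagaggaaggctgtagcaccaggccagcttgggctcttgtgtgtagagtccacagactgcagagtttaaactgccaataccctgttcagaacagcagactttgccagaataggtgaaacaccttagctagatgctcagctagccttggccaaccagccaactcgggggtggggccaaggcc
The window held 51.2% G and C and none of the 3 motifs searched above. Use of this annotated start in these cells was not tested.

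Ephx1 was at 6.72, 6.93 and 6.66 in the knockout and at 8.09, 7.80 and 7.97 in the control. A gap of 0.87 separated the groups, and control 1 was the highest array. The change was -1.18 ± 0.13 (SE; 95% interval -1.47 to -0.90, adjusted p = 0.00374), a fall of 2.27-fold with an interval from 1.86 to 2.77. The call held without each of the 6 arrays in turn, with adjusted p from 0.00554 to 0.0264. Against control 1 alone, where enterocyte RNA was lowest among controls and mural RNA highest, the change was -1.32 (adjusted p = 0.0562). It was -1.44 with the enterocyte mean in the model (adjusted p = 0.223) and -0.88 with the mural mean (adjusted p = 0.738).

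Gstm1 encodes a mu-class glutathione S-transferase and lies in a cluster on chromosome 3 between Gstm2 and Gstm4. Its values were 6.57, 6.23 and 6.35 in the knockout and 6.81, 6.75 and 6.72 in the control. The groups were separate by 0.15, with knockout 1 the nearest to the controls. The change of -0.37 ± 0.13 (SE; 95% interval -0.67 to -0.073) did not pass (adjusted p = 0.199). Of the other mu-class genes, the change was -0.015 ± 0.11 for Gstm2 (adjusted p = 0.967), 0.066 ± 0.19 for Gstm4 (adjusted p = 0.909) and 0.19 ± 0.33 for Gstm7 (adjusted p = 0.828), while Gstm6 was below background on all 6 arrays. Gstm3 fell at least 2.83-fold (adjusted p = 0.0368), with all 3 knockout arrays below background and controls 1 to 3 at 4.13, 6.77 and 5.97. The highest and lowest of these controls were also those of the enterocyte mean. With that mean as a covariate the change of Gstm3 was 0.60 (adjusted p = 0.773), and with the mural mean -5.03 (adjusted p = 0.248). The part of either cell type was not tested. The call of Gstm3 also ended with the robust prior (adjusted p = 0.138) and without the variance trend (adjusted p = 0.0771). It ended as well without any 1 array except control 1 (adjusted p from 0.0709 to 0.127). Members of this cluster are similar in sequence, so their values are uncertain where probes could detect more than 1 of them.

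**Figure D3:**
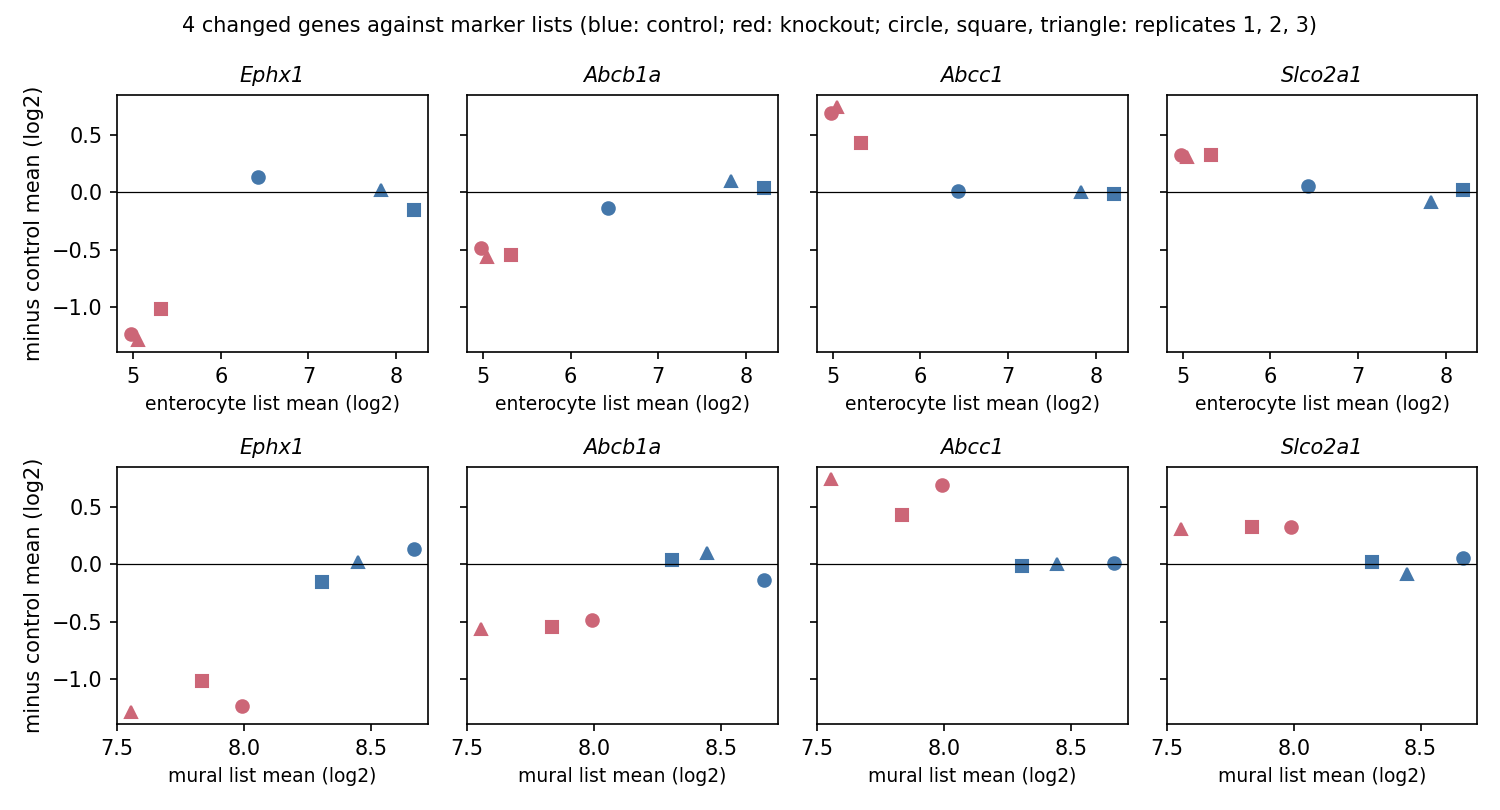
For Ephx1, Abcb1a, Abcc1 and Slco2a1, the log2 value minus the control mean (vertical axis) against the mean of the enterocyte markers (upper row) and of the mural markers (lower row) on the same array, with controls in blue and knockouts in red. The 3 knockout arrays lie at the low end of both lists, at 4.98 to 5.32 and 7.56 to 7.99, and control 1 lies between them and the other controls for the enterocyte list only.

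The 3 genes most alike to each changed member were those with the smallest root mean square difference over the 6 arrays after each gene's mean was subtracted. For Ephx1 they were Gm5481 (0.0683), Ecm2 (0.0770) and Pln (0.0781), the last encoding phospholamban, a regulator of the calcium pump of muscle. For Abcb1a they were Zfp467 (0.0361), Papss2 (0.0547) and Cspg4 (0.0554), and Cspg4 is 1 of the 15 mural markers. For Slco2a1 they were Nucb1 (0.0125), Dll1 (0.0160) and Cog3 (0.0287). For Abcc1 they were Tstd2 (0.0503), Hecw2 (0.0620) and Sbno2 (0.0633). These are descriptions of likeness over 15283 other genes, and 6 arrays in 2 groups leave many genes with like profiles.

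Among related genes, phase I and phase II enzymes held most of the called genes. Of 49 listed phase I genes, 39 were above background, of which 8 fell and 1 rose, with a median change of -0.28. Of 46 phase II and glutathione genes, 26 were above background, of which 7 fell and 0 rose, with a median of -0.28. Over all genes tested 1.48% were lower, 1.13% higher and the median was -0.017. Enterocyte and mural means were lower in the same arrays, by 2.16 and 0.76 at the median of their genes, and many phase I and II enzymes are also made by enterocytes. With 1 array left out in turn the lower counts were 2 to 11 and 1 to 7. They were lowest without knockout 3, at 2 and 1. Without control 1 they were 11 and 7, and against control 1 alone they were 1 and 0. With the enterocyte mean as a covariate they were 0 and 0, a fit in which 3 genes passed over the whole table. With the mural mean as a covariate they were also 0 and 0, and 0 genes passed over the whole table. With so few genes passing, neither fit can tell the part of these cell types in the counts, which was otherwise not tested.

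Among phase I genes the smallest p-values belonged to Cyp4b1, a fatty acid and xenobiotic P450 that averaged 6.96 ± 0.022 in the knockout and 8.20 ± 0.14 in the control (SD, n = 3 each; adjusted p = 0.00189). Cyp1b1, a P450 induced through the aryl hydrocarbon receptor, was at 6.65, 6.26 and 6.40 in the knockout and at 8.67, 8.13 and 7.92 in the control, a 3.49-fold fall (adjusted p = 0.00379). With the enterocyte mean in the model the changes of Cyp4b1 and Cyp1b1 were -0.95 and -2.72, and with the mural mean -1.43 and -1.15. None of these passed, and the cell source of the falls was not tested. The flavin monooxygenase genes Fmo1 and Fmo5 fell 2.06-fold and 1.90-fold (adjusted p = 0.0272 and 0.0275). Maob, a monoamine oxidase gene, fell at least 2.28-fold from a control mean of 5.35, its knockout mean being below background (adjusted p = 0.0103). The rise was in Akr1b8, an aldo-keto reductase gene, at least 1.56-fold to 4.77 with all 3 controls below background (adjusted p = 0.0151). All of these groups were separate. Cyp4b1 and Cyp1b1 kept their calls without each array in turn. Without the variance trend the calls of Fmo1 and Fmo5 ended (adjusted p = 0.0615 and 0.0607), while those of Cyp4b1, Cyp1b1, Maob and Akr1b8 held. The call ended for Maob without knockout 3 (adjusted p = 0.0532), for Akr1b8 without control 3 (adjusted p = 0.0683), and for Fmo1 and Fmo5 without any of 4 arrays each (adjusted p from 0.0615 to 0.108 and from 0.0629 to 0.0951).

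Among phase II genes Gstp1 and Gstp2, the pi-class transferases, fell by 0.54 ± 0.067 and 0.65 ± 0.12 on the log2 scale (SE; adjusted p = 0.00764 and 0.0255). They are near-identical copies, so their separate values are uncertain. Gstk1, the kappa-class enzyme of mitochondria and peroxisomes, was at 6.95, 7.14 and 6.76 in the knockout and at 7.97, 8.43 and 7.83 in the control, 2.19-fold lower (adjusted p = 0.0137). The microsomal transferase genes Mgst3 and Mgst2 fell 1.48-fold and 3.02-fold (adjusted p = 0.0238 and 0.0406). For Mgst2, control 1 at 6.48 was nearer to the knockout arrays, 5.12 to 5.90, than controls 2 and 3 at 7.77 and 7.37. Control 1 also had the lowest enterocyte mean of the controls. The change of Mgst2 was -0.19 with the enterocyte covariate (adjusted p = 0.982) and -2.65 with the mural covariate (adjusted p = 0.520). A comparison with control 1 alone gave -0.86. The part of either cell type was not tested. The call of Mgst2 also ended without a filter on low values (adjusted p = 0.0517) and without the variance trend (adjusted p = 0.0779). It ended as well with the robust prior (adjusted p = 0.0552), with the replicate block (adjusted p = 0.0636) and without any 1 array except control 1 (adjusted p from 0.0781 to 0.137). Gstp1 kept its call without each array in turn, while that of Gstk1 ended without knockout 3 (adjusted p = 0.0623). The calls of Gstp2 and Mgst3 ended without any of 4 arrays each (adjusted p from 0.0594 to 0.105 and from 0.0689 to 0.0937). Without the variance trend Gstk1 was the only phase II gene called (adjusted p = 0.0404), and the call of Gstp1 ended (adjusted p = 0.0665).

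Pumps, carriers and regulators beyond the listed genes changed in few cases. Of 13 further ABC pumps, 10 were above background and 1 rose, with 0 falling and a median of -0.043. It was Abcg1, an exporter of cholesterol, which rose by 0.68 ± 0.10 (SE) on the log2 scale from 7.71, 7.93 and 7.83 in the control to 8.41, 8.61 and 8.49 in the knockout (adjusted p = 0.0137). The call ended without knockout 3 (adjusted p = 0.0608) and without control 3 (adjusted p = 0.0569). Of 23 organic anion, cation and nucleoside carriers, 12 were above background and 0 passed in limma, with 1 at an unadjusted p under 0.05. Over all 15284 genes tested, 2512 had an unadjusted p under 0.05. The smallest p-values were those of Slco2b1, an organic anion carrier, at 0.56 ± 0.14 (SE; adjusted p = 0.0731, but 0.036 with the replicate block and 0.0476 with the stricter filter), and Slco4a1, at means of 4.04 and 4.52 with the knockout below background (adjusted p = 0.319). Of 23 sensors of foreign compounds and their cofactors, 19 were above background, 1 fell and 0 rose. It was Ahrr, the repressor of the aryl hydrocarbon receptor, at 5.12, 5.13 and 4.82 in the knockout and at 5.92, 5.79 and 5.89 in the control, 1.79-fold lower (adjusted p = 0.0229). The call of Ahrr ended without any 1 of the 6 arrays (adjusted p from 0.0509 to 0.0869).

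**Figure D4:**
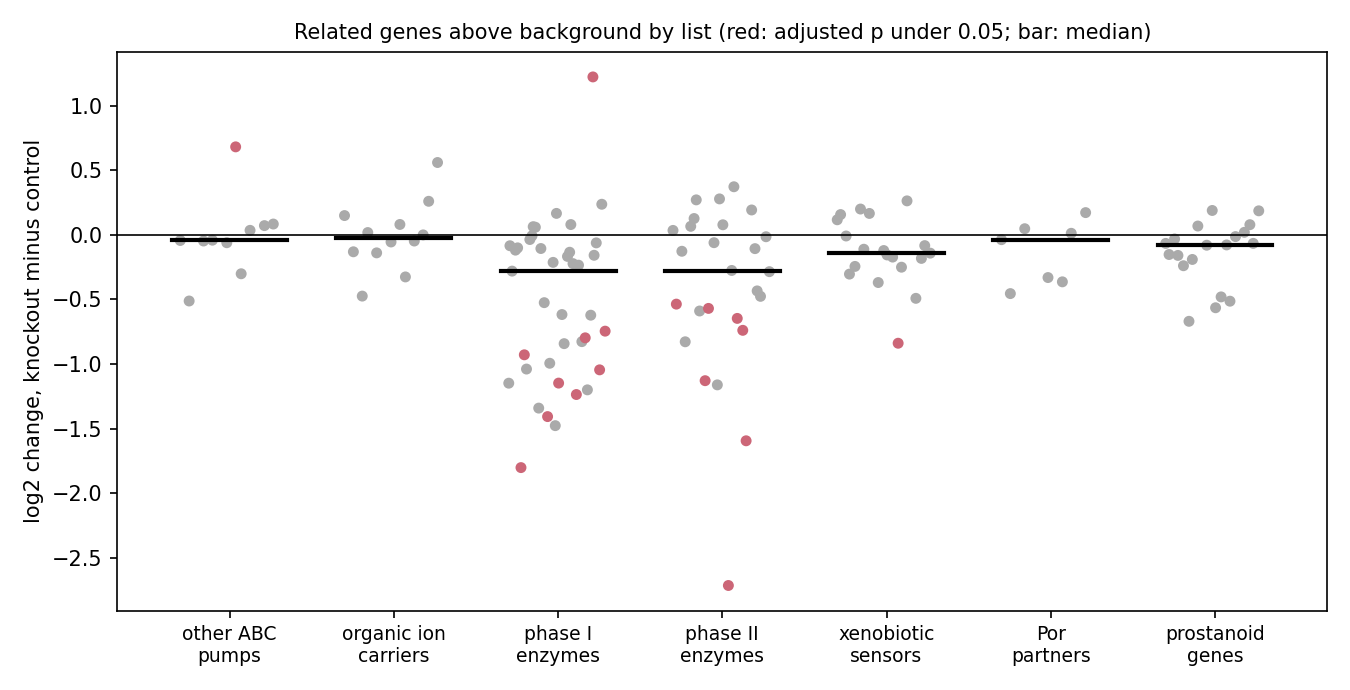
Log2 change, knockout minus control, of each gene above background in 7 lists of related genes, 1 point per gene, in red where the adjusted p was under 0.05, with the list median as a bar. The called genes of the phase I and phase II lists lie below 0 with the exception of Akr1b8, and the lists of Por partners, prostanoid genes and organic ion carriers hold no called gene.

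Por encodes the reductase that supplies electrons to microsomal P450 enzymes, and 7 of its microsomal partners were above background. None passed in limma, against 2.61% of all genes tested. An unadjusted p under 0.05 was found for 3 of them, and for 2512 of all 15284 genes. Pgrmc1, a heme-binding partner of P450 enzymes, was at -0.33 ± 0.098 (SE; adjusted p = 0.125) and Pgrmc2 at -0.45 ± 0.16 (SE; adjusted p = 0.192). With the arrays centred on the pan-endothelial mean, Pgrmc1 passed at -0.43 (adjusted p = 0.0416). Prostaglandin and leukotriene genes cover synthesis, breakdown and receptors around the substrates of Slco2a1, Abcc4 and Abcc1. They gave 0 calls in limma among 19 above background of 23 listed, with 1 at an unadjusted p under 0.05. Beside the shares over all genes, lists of 7 and 19 genes are too short to read 0 calls as a lack of change. Ptgir, the prostacyclin receptor gene, was at -0.51 ± 0.17 (SE; adjusted p = 0.179), and Hpgd, for the enzyme that inactivates prostaglandins, at -0.67 ± 0.31 (SE; adjusted p = 0.327).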

How the data were processed

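The deposited values are log2 levels of probe sets from 6 arrays (Affymetrix Mouse Gene 2.0 ST) of 1 colour. Per the submitters' processing notes, the authors' values came from RMA in the oligo package, with versions not given in the sources used here. RMA corrects background, equalises the distributions of the arrays and summarises probes, so a change shared by most genes would not be seen. The array medians ranged from 4.77 to 4.81. Arrays have no read depth, and their number limits the precision.

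Of 41345 probe sets, 23521 had 1 gene symbol in the platform annotation, 1814 several and 16010 none, and only the first kind was used. The comparison was made in R 4.3.3 by limma 3.58.1, as two-sided tests from lmFit and eBayes under a variance trend. Changes are knockout minus control. Where a group mean was below background, a fold is a lower bound, computed after its arrays under the background level were set to that level. The procedure was tested on simulated data.

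The members, the lists of related genes and of markers, and the alternatives were chosen with earlier results of these data known. Named genes are the members, up to 6 called genes of each related list (or the 2 with the smallest p), the sort markers and Apc, the 3 brightest enterocyte, pan-epithelial and mural markers, the 3 profiles most alike to each changed member, with relatives of Gstm1 and Abcb1b added outside this rule.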

Additional observations from a re-analysis of the deposited data

How the results depend on the processing

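The number of members that passed was 4. It was 3 to 5 under the other filters and normalizations, the mean of probe sets, the robust prior, the array weights and the threshold of 0.10. It was 1 without the variance trend, and 0 with the enterocyte mean as a covariate, with the mural mean as a covariate and against control 1 alone. Over all genes 399 passed. This count was 636 with the arrays centred on the pan-endothelial mean, 768 at the threshold of 0.10, 139 without the variance trend, 3 with the enterocyte covariate, 0 with the mural covariate and 52 against control 1 alone. With 1 array left out, the members numbered 1 to 3 and all genes 91 to 379, the lowest being without knockout 3 (1 and 91). Without control 3 they were 2 and 128. Pan-endothelial centring moved the share of higher calls from 43.4% to 17.8%. The covariate means do not overlap between the groups. The covariate fits and the comparison with 1 control leave few degrees of freedom, and the lone control is assumed to vary like the knockout arrays. With the enterocyte covariate Gstm3 turned from -2.71 to 0.60, Ptgir from -0.51 to 0.25 and Hpgd from -0.67 to 0.52. With the mural covariate Slco4a1 turned from -0.47 to 0.19 and Abcb1b from 0.15 to -0.24, and Hpgd was at 0.031 against control 1 alone. The causes were not tested.

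The labels do not say whether same-numbered arrays were paired. Same-numbered knockout and control arrays had correlations of deviations of -0.020, -0.0077 and 0.039. These show no clear shared deviation, but 3 arrays per group cannot settle whether the numbers paired the arrays. With the replicate block 3 members and 394 genes passed, the calls of Abcc1 (adjusted p = 0.0812) and Mgst2 (adjusted p = 0.0636) being lost and that of Slco2b1 gained (adjusted p = 0.036). The Abcb1a minus Abcb1b change of -0.68 ranged from -0.83 to -0.57 with 1 array left out and was -0.68 with the replicate block (exact p = 0.25, the smallest possible). The 8 members kept their direction under the alternatives run, except Abcb1b, which was at -0.24 with the mural covariate and was not tested under the stricter filter. Over the 28 named members and related genes, 425 values kept direction and side of the threshold, 115 lost a call, 6 gained one and 6 turned.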
